A study of Mus musculus with 13 samples.

Results

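TRAV14 is a family of near-identical V genes of the T-cell receptor α-chain (TCRα) locus. Its clonotypes were taken from the deposited tables as every functional entry, that is, with a CDR3 amino-acid sequence free of stop codons and frameshifts, whose V gene name carried the number 14 directly after TRAV and no DV, the tag of dual-use α/δ genes. This gave 10241 of 78521 functional clonotypes, with 1101850 counts in all, and left out 1532 clonotypes of the dual-use gene TRAV14D-3-DV8. The samples were bulk TCRα libraries from rescued regulatory T (Treg) cells of C57BL/6 male mice of genotype Foxp3LSL/yCd4creERT2, in which a floxed STOP cassette silences Foxp3, the transcription factor that defines Treg cells, until Cre removes it. Each animal was given 4-hydroxytamoxifen (4-OHT) once, at postnatal day 14, which activates the CreERT2 made from the Cd4 locus, so recombination is possible in any Cd4-expressing cell, thymocytes included. Sorting of GFP+ cells, from lymph nodes and spleen, took place 1.5 months later (age 8 weeks, n = 2), 3 months later (age 3.5 months, n = 4), 5 months later (age 5.5 months, n = 2) or 7 months later (age 7.5 months, n = 5). The question was how the repertoire of the persisting population changed with time. There was no untreated or Foxp3-sufficient group. The sample titles call the cells rescued Treg and the cell type is given as T cell, and TCRα sequences hold no marker against which the Treg label could be checked. The labels do not say whether each replicate was 1 mouse, so p-values measure the spread between these samples.

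The α chain is assembled in the thymus by joining 1 of many V genes to 1 of many J genes on chromosome 14. The joint, trimmed at both ends and filled with untemplated bases, encodes CDR3, the loop that contacts the peptide. Rearrangement on 1 chromosome can be repeated, and each round joins a V gene farther upstream to a J gene farther downstream. A joint that is out of frame gives no receptor and is not selected as protein, although its RNA can be sequenced beside that of the functional chain.

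The 6 gene names in use were TRAV14-1, TRAV14-2, TRAV14-3, TRAV14D-1, TRAV14D-2 and TRAV14N-3, in which the letters D and N mark copies in duplicated blocks of the V cluster. The ends of their coding sequences are shown because they decide what CDR3 can tell about the gene used. Each is the last 60 bases in the GENCODE vM21 annotation of GRCm38, plus strand, with the germline bases that enter CDR3 in capitals.
TRAV14D-1, chr14:52855614-52856166: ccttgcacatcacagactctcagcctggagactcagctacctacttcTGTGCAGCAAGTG
TRAV14D-2, chr14:52948568-52949169: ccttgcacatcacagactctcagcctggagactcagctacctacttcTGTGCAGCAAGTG
TRAV14N-3, chr14:53370077-53370575: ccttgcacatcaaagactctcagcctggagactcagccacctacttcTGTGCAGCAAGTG
TRAV14-1, chr14:53554022-53554558: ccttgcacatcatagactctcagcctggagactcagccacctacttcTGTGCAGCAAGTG
TRAV14-2, chr14:53640701-53641225: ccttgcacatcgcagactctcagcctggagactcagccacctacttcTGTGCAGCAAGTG
TRAV14-3, chr14:53763173-53763694: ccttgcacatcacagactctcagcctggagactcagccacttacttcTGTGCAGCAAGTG

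All 6 members share the 13 germline bases inside CDR3, so the joint itself does not separate the members. Over the last 270 coding bases they differ from each other by 5 bases (TRAV14-3 and TRAV14N-3, 98.1% identity) to 20 bases (TRAV14-1 and TRAV14D-2, 92.6% identity). The annotated genes TRAV14N-1 and TRAV14N-2 are identical to TRAV14D-1 and TRAV14D-2 over these 270 bases, and neither name occurred in the tables, so a clonotype under a D name may come from the N copy. Of 1568 joints found in 2 or more samples, 999 (63.7%) carried more than 1 TRAV14 gene name, 224 were also listed under the dual-use gene and 241 under another V family. Uncertain naming and separate rearrangements of different genes to the same joint cannot be told apart by these numbers. The family label is therefore not taken as certain for each joint. Of TRAV14 CDR3s, 94.98% ± 1.05 (SD, n = 13) began with the residues CAA that the germline end encodes, which was not compared with other families.

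Libraries held 509818 to 936831 counts, and TRAV14 contributed 57648 to 150455 counts and 613 to 1049 clonotypes per sample. A floor of 3 counts, set here and not given by the data, equals 0.00199% to 0.00520% of TRAV14 counts. Clonotypes with fewer counts were listed and were kept in the main values. Intervals and floors cover counting error only, since the sources used here do not state whether the counts are reads or molecules. Of the samples, 3 stood apart by the joints they shared. The samples 3 months replicate 4 and 5 months replicate 1 had 136 TRAV14 joints in common, 15.8% and 19.3% of their TRAV14 clonotypes, and 1.5 months replicate 1 and 3 months replicate 4 had 134, 12.8% and 15.5%. As a share of the joints of either sample this was 9.49% and 7.54%, against a median of 4.70% over all 78 pairs of samples. The same pairs gave 8.05% and 7.25% in other TRAV clonotypes, against a median of 2.49%. The main difference in sharing is therefore also given without these 3 samples, and without joints far more abundant in another library, while the other values on sharing use all 13 samples.

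A recurrent single-base pattern touched J use and sharing. In 953 TRAV14 clonotypes, 9.30% ± 1.40 per sample (SD, n = 13), the joint matched a clonotype of the same sample and J gene, over 2 times as large, at all but 1 base, where the larger had T and the smaller G. Outside TRAV14 the share was 8.88% ± 1.08, and it was higher in TRAV14 in 8 of 13 samples (p = 0.0608, exact permutation test by sign flips, two-sided). The next most frequent kind of single-base change, G to A, was found in 217 TRAV14 clonotypes. In all, 656 of the 953 (68.8%) used TRAJ15, TRAJ13 or TRAJ21, and most of these lay at 1 germline T in each. The J sequences are shown with that base in capitals, from GENCODE vM21 (GRCm38, plus strand).
TRAJ15, chr14:54204422-54204481: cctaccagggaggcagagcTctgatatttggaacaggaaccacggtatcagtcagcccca
TRAJ13, chr14:54205741-54205797: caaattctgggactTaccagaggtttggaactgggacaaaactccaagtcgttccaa
TRAJ21, chr14:54198790-54198846: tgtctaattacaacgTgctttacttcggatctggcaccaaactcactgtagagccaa
The marked base held 230 of 243 such TRAJ15 clonotypes, 195 of 213 in TRAJ13 and 183 of 200 in TRAJ21. The smaller clonotype had a median of 11.8% of the counts of the larger, and together they made up 2.18% of TRAV14 counts. The authors' correction removed single-mismatch clonotypes below a size ratio of 0.05, and what produced the remaining ones was not tested. They are called T-to-G partners here, and results whose direction or call changes without them are given both ways.

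TRAV14D-1 was the most used member, and the group means of the 6 members had the same order at each time point. It supplied 36.3% ± 3.02 of TRAV14 clonotypes (SD, n = 13), followed by TRAV14-2 with 17.9% ± 1.22, TRAV14N-3 with 14.8% ± 2.26, TRAV14-3 with 13.7% ± 1.11, TRAV14-1 with 9.04% ± 1.48 and TRAV14D-2 with 8.35% ± 1.86. The ranges of TRAV14-1 (6.69% to 11.5%) and TRAV14D-2 (6.26% to 13.4%) overlapped, as did those of TRAV14N-3 (10.97% to 17.8%) and TRAV14-3 (12.3% to 15.9%). By counts instead of clonotypes, TRAV14D-1 held 42.2% ± 6.05 of the family and TRAV14-3 held 9.30% ± 3.10.

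**Figure D1:**
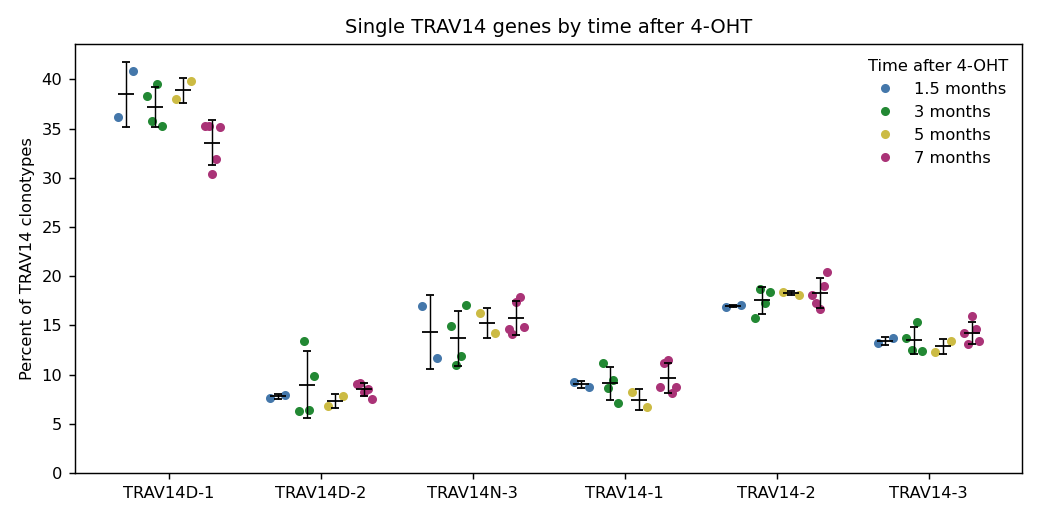
Share of TRAV14 clonotypes (percent) under each gene name, by time after 4-OHT; points are samples, bars mean ± SD. TRAV14D-1 lies above the other names in every sample, and 1 sample at 3 months stands out for TRAV14D-2, at 13.4%.

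For TRAV14D-1 the share was 36.1% and 40.8% at 1.5 months, 38.3%, 35.7%, 39.5% and 35.2% at 3 months, 38.0% and 39.8% at 5 months, and 35.2%, 35.2%, 30.4%, 31.9% and 35.2% at 7 months. The 7-month values overlapped those at 3 months and lay below both values at 1.5 months and at 5 months. In edgeR's quasi-likelihood test on clonotype numbers, adjusted by Benjamini-Hochberg over 90 V genes, TRAV14D-1 differed between 7 and 1.5 months by -0.22 on the log2 scale (SE 0.10, adjusted p = 0.482) and between 7 and 3 months by -0.16 (SE 0.08, adjusted p = 0.865). None of the 90 V genes passed adjusted p under 0.05 in either comparison (0% called in both), with 6 (6.67%) and 1 (1.11%) at unadjusted p under 0.05, and DESeq2 called 0 in both. The other 5 members had log2 differences of 0.05 to 0.10 against 1.5 months, and -0.08 to 0.18 against 3 months. The family as a whole changed by -0.03 (SE 0.07, adjusted p = 0.801, over 20 V families) and by -0.03 (SE 0.06, adjusted p = 0.877), with 0% of families called in both, 2 (10%) and 0 at unadjusted p under 0.05, and 0 by DESeq2.

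The members joined different parts of the J cluster. TRAV14-3, the member nearest the constant gene Trac, joined J genes on average 45.3 kb ± 1.34 upstream of Trac (SD, n = 13), whereas TRAV14D-1, the farthest, joined J genes 24.5 kb ± 0.838 upstream. The value in TRAV14-3 ran from 42.4 to 47.5 kb with a median of 45.0 kb, and in TRAV14D-1 from 23.2 to 25.8 kb with a median of 24.8 kb, with no overlap. TRAV14-2 lay at 38.1 kb ± 0.927 (36.8 to 39.8 kb, median 38.1 kb) and TRAV14-1 at 33.9 kb ± 2.39 (29.5 to 39.3 kb, median 33.8 kb). TRAV14D-2 at 25.1 kb ± 1.49 and TRAV14N-3 at 25.8 kb ± 1.06 sat beside TRAV14D-1.

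**Figure D2:**
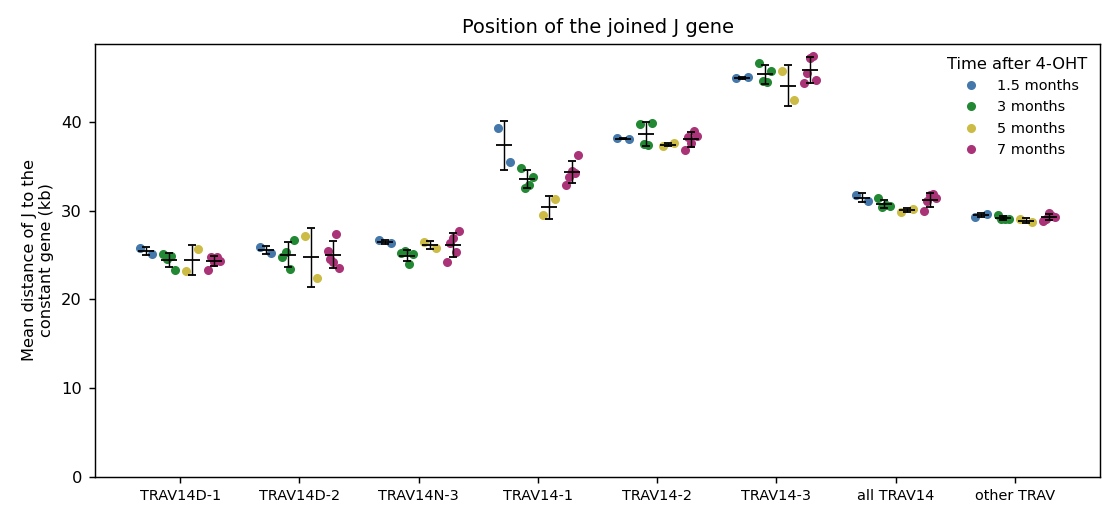
Mean distance of the joined J gene to Trac (kb) for each TRAV14 member, all TRAV14 and other TRAV clonotypes, by time after 4-OHT; points are samples, bars mean ± SD. The 3 members with D or N names lie near 25 kb, while TRAV14-1, TRAV14-2 and TRAV14-3 lie higher, up to 47.5 kb.

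Of the 15 pairs of members, 13 differed in J position (exact permutation tests by sign flips over 13 samples, two-sided, Benjamini-Hochberg over the 15). TRAV14-3 exceeded TRAV14D-1 by 20.7 kb ± 1.75 in 13 of 13 samples (exact p = 2.44e-04, the smallest this test can give, adjusted p = 3.33e-04). TRAV14-2 minus TRAV14-3 was -7.16 kb ± 1.19 and TRAV14-1 minus TRAV14-3 was -11.4 kb ± 2.51, both lower in 13 of 13 samples. The pairs that did not pass were TRAV14D-1 against TRAV14D-2 (-0.527 kb ± 2.01, adjusted p = 0.362) and TRAV14D-2 against TRAV14N-3 (-0.728 kb ± 1.92, adjusted p = 0.212). The farther a member lay from Trac, the nearer to Trac was the mean J position. From the constant gene outward, TRAV14-3 starts 457 kb from Trac, TRAV14-2 580 kb, TRAV14-1 666 kb, TRAV14N-3 850 kb, TRAV14D-2 1272 kb and TRAV14D-1 1365 kb. This order is a description over 6 genes. In joints listed under 1 gene name only, TRAV14-3 was at 46.2 kb and TRAV14D-1 at 23.6 kb. A joint found in a single sample, as 5850 were, can carry only 1 name. These values therefore cannot decide whether uncertain names affect the gap. The dual-use gene TRAV14D-3-DV8, 1142 kb from Trac and no member, was at 23.5 kb ± 1.198. This comparison, and the J classes below, were chosen after the data were seen.

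As a family, TRAV14 joined J genes slightly farther upstream than other TRAV clonotypes. Its mean J position was 30.9 kb ± 0.7103 from Trac (29.9 to 31.9 kb, median 31.0 kb) against 29.2 kb ± 0.293 (28.7 to 29.7 kb, median 29.1 kb), higher in 13 of 13 samples by 1.71 kb ± 0.518 (p = 2.44e-04, exact permutation test, two-sided). With each clonotype weighted by its counts the difference was 0.267 kb (p = 0.195, exact permutation test).

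All 43 J genes tested were joined to TRAV14. The most used were TRAJ31 with 6.16% ± 0.928 of TRAV14 clonotypes, TRAJ15 with 5.95% ± 1.19, TRAJ21 with 4.96% ± 1.50, TRAJ13 with 4.47% ± 0.745 and TRAJ27 with 4.18% ± 0.451 (SD, n = 13), which made up 25.6% in all. T-to-G partners were 40.2% of the TRAJ15 clonotypes, 46.2% of TRAJ13 and 39.8% of TRAJ21, but 5.25% of TRAJ31 and 3.04% of TRAJ27. Without them TRAJ31 and TRAJ27 ranked 1 and 2 in use, TRAJ15 ranked 5, TRAJ21 ranked 11 and TRAJ13 ranked 16.

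Against other TRAV clonotypes of the same samples, 23 of 43 J genes differed in use (53.5% called, edgeR quasi-likelihood test paired by sample, adjusted p under 0.05, 58.1% at unadjusted p under 0.05), 12 higher (27.9%) and 11 lower (25.6%). By position, of the 13 J genes numbered 41 and higher, which lie farthest upstream, 8 were higher in TRAV14 and 0 lower, of the 17 in the middle 3 were higher and 5 lower, and of the 13 numbered 20 and lower 1 was higher and 6 lower. Single libraries moved the number that were higher, which was 7 (with 11 lower) without 5 months replicate 2, 8 (with 13 lower) without 7 months replicate 3 and 8 (with 11 lower) without 7 months replicate 4. DESeq2 called 19 of 44 (9 higher, 10 lower), and removing T-to-G partners left 24 of 43 (13 higher, 11 lower). On summed counts in place of clonotype numbers 4 J genes passed, with TRAJ7 (0.96) and TRAJ31 (0.53) higher and TRAJ18 (-0.86) and TRAJ2 (-1.84) lower on the log2 scale. Of these, TRAJ7 was not among the 23 and was named after its value was seen.

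**Figure D3:**
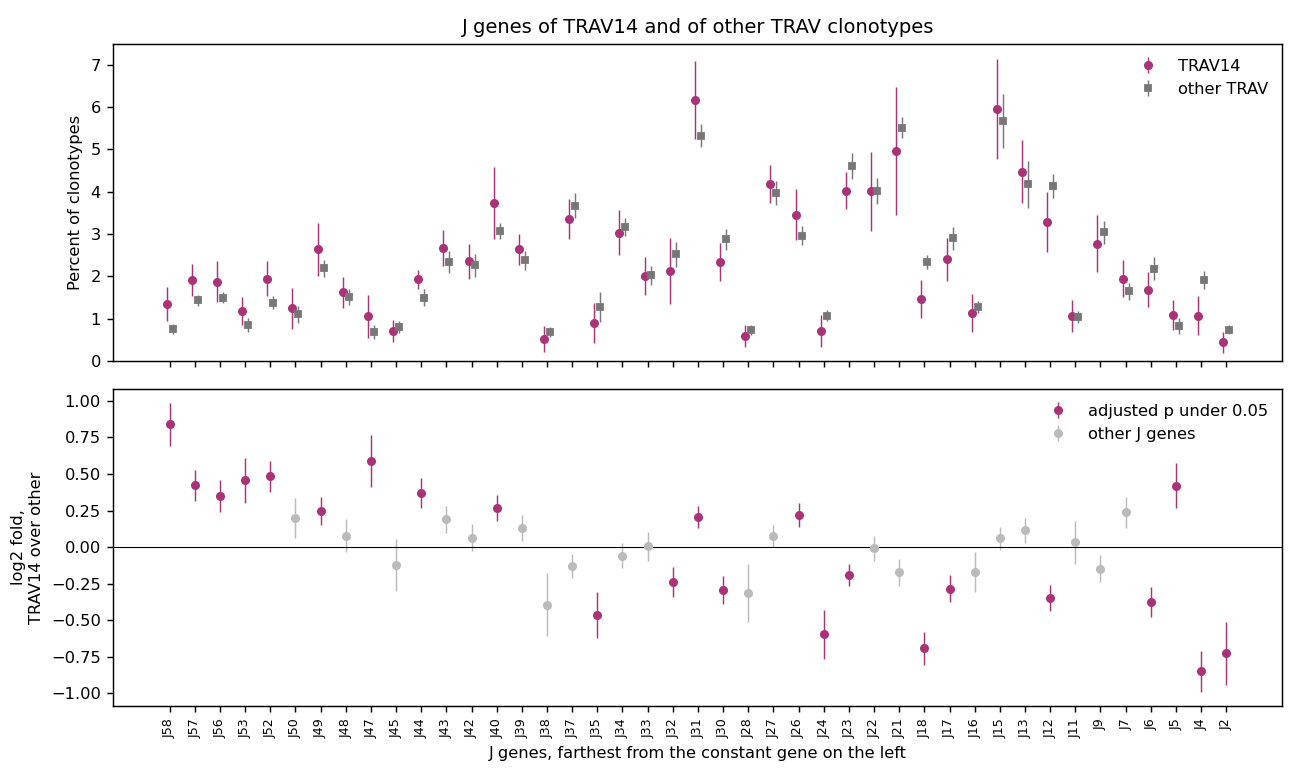
Upper panel, percent of TRAV14 and of other TRAV clonotypes that use each J gene (mean ± SD over 13 samples); lower panel, log2 fold of TRAV14 over other clonotypes ± SE from edgeR, with J genes ordered by position. TRAJ58, at the upstream end, has a log2 fold of 0.84, and TRAJ4, near the downstream end, -0.85.

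Some J genes among those with large differences are shown with the bases that lie inside CDR3 in capitals, from GENCODE vM21 (GRCm38, plus strand), higher in TRAV14 first.
TRAJ58, chr14:54157280-54157342: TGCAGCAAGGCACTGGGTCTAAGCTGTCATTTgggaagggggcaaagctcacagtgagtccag
TRAJ47, chr14:54171800-54171856: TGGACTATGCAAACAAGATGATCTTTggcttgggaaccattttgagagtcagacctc
TRAJ4, chr14:54216291-54216353: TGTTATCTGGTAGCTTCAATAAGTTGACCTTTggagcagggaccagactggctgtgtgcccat
TRAJ18, chr14:54200777-54200842: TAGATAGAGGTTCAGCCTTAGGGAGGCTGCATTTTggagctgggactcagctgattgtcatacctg
TRAJ58 was used by 0.819% to 2.28% of TRAV14 clonotypes (median 1.32%) and by 0.595% to 0.948% of others (median 0.730%). TRAV14 was higher in 13 of 13 samples, although the ranges overlapped, with a log2 fold of 0.84 (SE 0.14, adjusted p = 3.41e-06). TRAJ47 ran from 0.430% to 2.27% (median 0.953%) against 0.434% to 0.935% (median 0.692%), higher in 12 of 13 samples (log2 fold 0.59, SE 0.18, adjusted p = 0.00615). The next were TRAJ52 (0.48, 12 of 13 samples), TRAJ53 (0.46, 9 of 13), TRAJ57 (0.42, 11 of 13) and TRAJ5 (0.42, 9 of 13), of which TRAJ5 is the 1 downstream J gene that was higher. TRAJ53 missed the threshold without 5 months replicate 2 (adjusted p = 0.0556) and with the dual-use gene in the family (log2 fold 0.28, adjusted p = 0.0772), and TRAJ5 without 3 months replicate 1 (adjusted p = 0.0627) or 7 months replicate 4 (adjusted p = 0.0563).

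Of the J genes used less, TRAJ4 was in 0.295% to 1.70% of TRAV14 clonotypes (median 1.16%) and 1.56% to 2.32% of others (median 1.95%), lower in 12 of 13 samples (log2 fold -0.85, SE 0.14, adjusted p = 1.45e-06). TRAJ18, the J gene of the invariant natural killer T cell receptor when joined to TRAV11, was in 0.585% to 2.12% against 1.99% to 2.59% (medians 1.51% and 2.38%), lower in 13 of 13 samples (-0.69, SE 0.11, adjusted p = 1.45e-06). The comparison set holds TRAV11 clonotypes, 0.569% of functional clonotypes on average. Also lower were TRAJ2 (-0.73, 12 of 13 samples lower), TRAJ24 (-0.60, 12 of 13), TRAJ35 (-0.46, 9 of 13) and TRAJ6 (-0.38, 11 of 13). Of the most used J genes, TRAJ31 passed the test (0.21, adjusted p = 0.0204, but 0.0585 to 0.108 without any of 6 single samples, 0.0676 by DESeq2, 0.0557 with a minimum of 2 counts and 0.0514 with the dual-use gene in the family), and TRAJ15 (0.06, adjusted p = 0.546), TRAJ13 (0.11, adjusted p = 0.250), TRAJ21 (-0.17, adjusted p = 0.110) and TRAJ27 (0.08, adjusted p = 0.396) did not. Without T-to-G partners TRAJ15 turned to -0.02 (adjusted p = 0.814) and TRAJ21 passed at -0.20 (adjusted p = 0.0416), as it did without 3 months replicate 3 (-0.23, adjusted p = 0.0358). With the dual-use gene in the family, TRAJ15 (0.19, adjusted p = 0.0297) and TRAJ13 (0.18, adjusted p = 0.0391) passed.

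The use of J classes was compared in functional and in frameshift clonotypes. Upstream J genes, numbered 41 and higher, were used by 22.5% ± 1.58 of functional TRAV14 clonotypes and 18.3% ± 0.738 of others, higher in 13 of 13 samples (exact permutation test by sign flips, adjusted p = 0.00146 over 6 tests). Downstream J genes, numbered 20 and lower, were used by 28.8% ± 2.43 and 31.9% ± 1.01, lower in 12 of 13 samples (adjusted p = 0.00293). Among frameshift clonotypes the upstream share was 14.7% ± 4.46 for TRAV14, from 774 clonotypes, and 15.1% ± 1.23 for others, a difference of -0.379 points ± 5.02 (p = 0.789, exact permutation test). The spread between samples was large in the frameshift class, and the difference between the classes was not tested.

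TRAV14 made up more of the functional than of the non-functional clonotypes. Its share was 12.2% to 13.6% of functional clonotypes (median 13.1%) and 5.17% to 8.90% of non-functional ones (median 6.92%), and the ranges did not overlap. The mean difference was 6.10 points ± 0.966 (SD, n = 13), higher in 13 of 13 samples (p = 2.44e-04, exact permutation test by sign flips, adjusted p = 4.27e-04 over 7 measures). By class, TRAV14 was 6.81% ± 1.07 of frameshift clonotypes and 10.96% ± 5.52 of those with an in-frame stop codon, which numbered 459 with 49 in TRAV14, and against the latter alone the difference was 2.11 points (p = 0.184, exact permutation test). The ratio of functional to frameshift share was 1.92, the highest of the 16 V families compared, before TRAV7 with 1.60 and TRAV16 with 1.51. Each member was higher among functional clonotypes in 11 to 13 of 13 samples, with ratios of 1.53 in TRAV14N-3, 1.57 in TRAV14-1, 1.79 in TRAV14-2, 1.98 in TRAV14D-1, 2.29 in TRAV14-3 and 3.45 in TRAV14D-2 (adjusted p = 4.88e-04 to 0.00171 over the 6 members, exact permutation tests). TRAV14D-2 rested on 34 frameshift clonotypes.

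**Figure D4:**
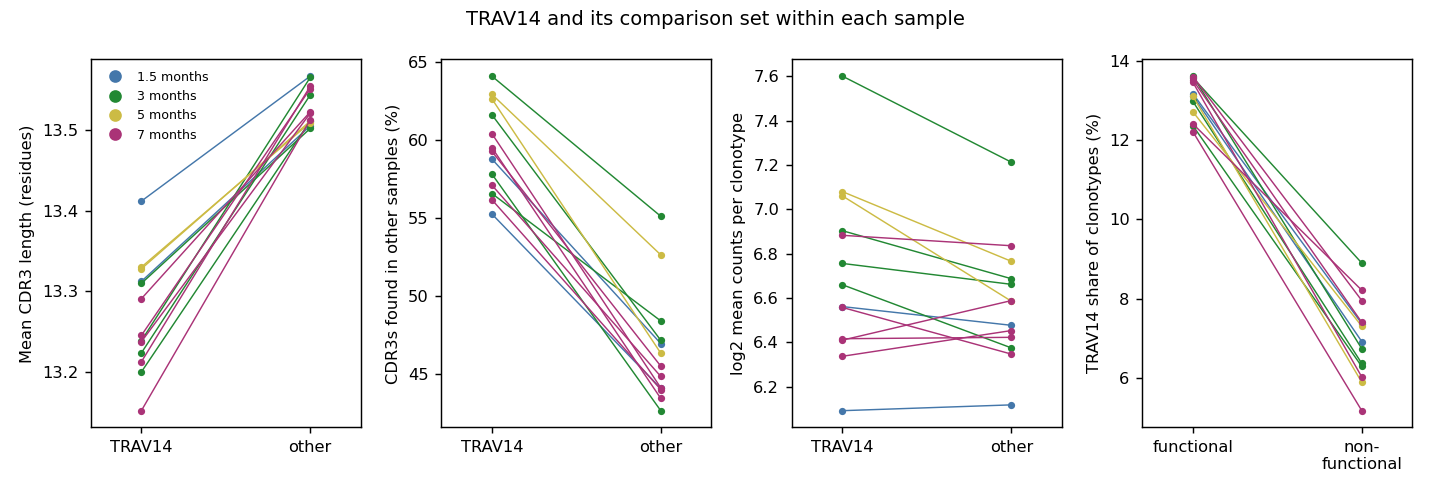
TRAV14 against its comparison set within each sample, with 1 line per sample, for mean CDR3 length (residues), the share of CDR3s also found in other samples (percent), log2 mean counts per clonotype and the TRAV14 share of functional and non-functional clonotypes (percent). The lines of length, sharing and functional share run 1 way in 13 of 13 samples, those of clone size in 9 of 13.

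CDR3s of TRAV14 were shorter on average than those of the other TRAV clonotypes in 1 pool. Length was not compared with single V families. Counted from the conserved cysteine to the end of the deposited CDR3, the mean per sample was 13.2 to 13.4 residues (median 13.2) against 13.5 to 13.6 (median 13.5), without overlap, and the difference was -0.260 residues ± 0.0727 (SD, n = 13), lower in 13 of 13 samples (p = 2.44e-04, exact permutation test by sign flips, adjusted p = 4.27e-04). Lengths of 12 residues made up 18.7% of TRAV14 and 13.7% of other clonotypes, higher in 13 of 13 samples, and lengths of 15 residues 10.2% and 14.1%, lower in 13 of 13. With the J genes matched the difference was -0.237 residues. Inserted bases, counted between the V end and the J start that the deposited tables list, did not pass the test, with means of 2.16 ± 0.0921 and 2.15 ± 0.0530 bases (exact p = 0.668). Joints listed without any were 27.2% to 32.7% of TRAV14 (median 29.9%) and 29.5% to 32.6% of others (median 31.1%), lower in 12 of 13 samples by 1.50 points on average (adjusted p = 0.00205), although weighting by counts turned this to 1.50 points higher (p = 0.284, exact permutation tests). The listed ends run over bases that differ from the annotated germline. Of 3031 TRAV14 joints listed without inserted bases, 1929 (63.6%) held at least 1 base outside the longest exact matches to the germline V end and J start. By exact matches, a count that any changed base inside V or J raises, the means were 4.68 ± 0.288 in TRAV14 and 5.06 ± 0.218 in others, a difference of -0.374 bases (p = 0.00146), and joints without any were 10.98% and 11.3%, a difference of -0.356 points (p = 0.438, exact permutation tests). Inserted bases of TRAV14 and other clonotypes therefore had no order that held under both counts.

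The germline end was partly preserved. Functional TRAV14 joints kept 11.2 ± 0.0770 of the 13 germline bases, and 36.7% ± 1.75 kept all of them (SD, n = 13), with 32.5% in TRAV14-3 to 38.8% in TRAV14-1. Residue 4, which the end of the germline sequence encodes, was serine in 62.7% ± 1.31 of clonotypes and arginine in 12.01% ± 0.935, followed by threonine in 4.09%. Frameshift TRAV14 joints kept all 13 bases in 37.7% ± 8.26, a difference of -1.08 points ± 8.27 from functional ones that did not pass the test (exact p = 0.648). They carried more listed inserted bases, 2.72 ± 0.289 against 2.16 ± 0.0921, in 13 of 13 samples (difference -0.559 ± 0.301 in functional minus frameshift, adjusted p = 7.32e-04, exact permutation tests over 3 measures chosen after the data were seen), and by exact germline matches 9.55 ± 1.11 against 4.68 ± 0.288.

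TRAV14 CDR3s were shared between samples more than those of other families. Of the distinct TRAV14 amino-acid CDR3s of a sample, 55.2% to 64.1% (median 59.3%) occurred under TRAV14 in at least 1 other sample. Among other TRAV clonotypes, matched within their own family, 42.6% to 55.1% did (median 45.5%). The difference was 12.9 points ± 2.76, higher in 13 of 13 samples (p = 2.44e-04, exact permutation test by sign flips, adjusted p = 4.27e-04). It was 14.2 points after removal of clonotypes whose share of counts was 100-fold or more larger in another library, 13.6 points without the 3 samples that shared many joints, and 12.3 points without T-to-G partners. A larger family offers more chances of a match. Beside families of like size, the share of 59.4% ± 2.81 in TRAV14 stood against 53.0% ± 3.62 in TRAV7, the largest family with 1136 clonotypes per sample, and 51.7% ± 4.68 in TRAV12 with 695, higher in 13 of 13 samples in both (adjusted p = 3.66e-04). TRAV4, with 605 clonotypes per sample, came to 57.5% ± 3.27, lower than TRAV14 in 10 of 13 samples (p = 0.0493), and without T-to-G partners in 9 of 13 (p = 0.152, exact permutation tests, families chosen after the data were seen).

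Most TRAV14 CDR3s were found in a single sample. Of 5523 distinct TRAV14 CDR3s, 3835 (69.4%) were found in 1 sample, 834 in 2, 377 in 3 and 4 in all 13. Joints in 1 sample, 5850 in number, were listed with 2.75 inserted bases on average and 20.03% with none. Joints in 7 to 13 samples, 57 in number, were listed with 0.0877, and 93.0% of them with none. By exact germline matches the shares without inserted bases were 2.58% and 71.9%. Mean CDR3 length was 13.4 residues in the former and 12.8 in the latter. All 78 pairs of samples had a larger overlap of nucleotide joints in TRAV14 than in other clonotypes.

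The 4 CDR3s found in all 13 samples used TRAJ13 (a tyrosine and an aspartate form), TRAJ12 and TRAJ42. The most widespread nucleotide joint of each is shown, because these are the CDR3s with the widest occurrence. The TRAJ13 tyrosine form and the TRAJ42 joint hold no base outside exact germline V and J matches.
TRAJ13 tyrosine form, in 13 samples: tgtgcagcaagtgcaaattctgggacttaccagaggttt
TRAJ12, in 12 samples: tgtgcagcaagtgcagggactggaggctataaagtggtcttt
TRAJ42, in 12 samples: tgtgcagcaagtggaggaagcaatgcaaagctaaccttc
TRAJ13 aspartate form, in 13 samples: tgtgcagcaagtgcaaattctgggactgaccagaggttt
The tyrosine form of TRAJ13 held 0.0358% to 0.367% of functional counts (median 0.1202%), in 5 nucleotide forms, of which 1 had no base outside exact germline matches and 4 had 2 each. The TRAJ12 CDR3 held 0.00793% to 0.114% (median 0.0472%) in 3 forms, and the TRAJ42 CDR3 0.000752% to 0.165% (median 0.0293%) in 6. The aspartate form, at 0.00461% to 0.0519% (median 0.0201%), also had 5 forms. Each of its 19 occurrences was a T-to-G partner of a tyrosine-form clonotype of the same sample, and its counts were 10.7% to 19.9% of those of the tyrosine form (median 16.8%). Without T-to-G partners 2 CDR3s were found in all 13 samples and 69.1% in 1.

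TRAV14 CDR3s were encoded by several nucleotide sequences within a sample more often than others. Such CDR3s made up 6.13% to 9.88% of TRAV14 (median 7.69%) and 5.04% to 7.34% of other CDR3s (median 5.71%), higher in 13 of 13 samples by 2.09 points ± 0.913 (p = 2.44e-04, exact permutation test, adjusted p = 4.27e-04), and by 1.76 points without T-to-G partners. Forms were counted within each V family, so a larger family offers more chances here too. No single family of like size was compared in this measure. Over all samples, 1 TRAJ15 CDR3 had 9 nucleotide forms, and a TRAJ22 CDR3 and another of TRAJ15 had 8 each. Both TRAJ15 numbers include forms that differ from a larger form only by T to G at the marked TRAJ15 base. The order of these 3 CDR3s therefore holds only with such forms counted. For the TRAJ15 CDR3 with 9 forms, those found in 2 or more samples are shown with listed inserted bases in capitals. This lets the same receptor be compared at the level of bases.
TRAJ15 form in 7 samples, 3500 counts: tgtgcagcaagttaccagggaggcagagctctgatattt
TRAJ15 form in 6 samples, 258 counts: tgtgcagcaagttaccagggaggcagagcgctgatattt
TRAJ15 form in 3 samples, 972 counts: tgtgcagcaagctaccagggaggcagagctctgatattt
TRAJ15 form in 2 samples, 364 counts: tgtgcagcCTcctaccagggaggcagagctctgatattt
TRAJ15 form in 2 samples, 88 counts: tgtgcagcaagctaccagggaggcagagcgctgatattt
The forms of 258 and 88 counts equal those of 3500 and 972 counts after a T-to-G change at the marked TRAJ15 base. The TRAJ22 CDR3 was the most abundant of the 3, at 0% to 0.262% of functional counts (mean 0.178%), and its main joint held 10457 counts.
TRAJ22, in 12 samples: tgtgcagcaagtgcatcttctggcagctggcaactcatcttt
This TRAJ22 joint was also the largest TRAV14 clonotype of 1.5 months replicate 1, with 1072 counts, and was found in the 11 other samples with up to 1546 counts.

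TRAV14 clonotypes were on average a little larger than others. The log2 of the mean counts per clonotype ran from 6.09 to 7.60 (median 6.66) against 6.12 to 7.21 (median 6.59), a difference of 0.14 ± 0.20 or 1.10-fold, higher in 9 of 13 samples (p = 0.0281, exact permutation test by sign flips, adjusted p = 0.0328). This call was lost in the same exact test without clonotypes of a single count (0.08, p = 0.178), with the dual-use gene in the family (0.10, p = 0.0608), and without 3 months replicate 1, 2 or 4 or either 5-month replicate (p = 0.0503 to 0.0562). Clonotypes above 0.1% of functional counts were TRAV14 in 17.5% ± 3.79 of cases, 211 clonotypes in all with 8 to 21 per sample, against 13.1% of all clonotypes, a difference of 4.38 points, higher in 12 of 13 samples (p = 9.77e-04, exact permutation test). Above 0.2% the difference was 3.91 points (p = 0.1204, exact permutation test).

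The most abundant TRAV14 clonotype of each time point is shown with listed inserted bases in capitals.
1.5 months replicate 2, TRAV14D-1 and TRAJ27: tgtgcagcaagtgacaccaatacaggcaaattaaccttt
3 months replicate 1, TRAV14-3 and TRAJ42: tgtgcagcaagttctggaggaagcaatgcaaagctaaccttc
5 months replicate 1, TRAV14N-3 and TRAJ39: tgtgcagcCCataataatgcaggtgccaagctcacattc
7 months replicate 2, TRAV14N-3 and TRAJ32: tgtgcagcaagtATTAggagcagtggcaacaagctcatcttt
The TRAJ27 clonotype had 2609 counts, 0.448% of functional counts (95% Wilson interval 0.431% to 0.465%), and its joint was found in 9 other samples with up to 296 counts. The TRAJ42 clonotype had 10124 counts, 1.36% (1.33% to 1.38%), and was in 4 other samples with up to 126 counts. The TRAJ39 clonotype was the largest of all, with 14500 counts, 2.67% of functional counts (2.62% to 2.71%) and 15.4% of TRAV14 counts, and was listed in 3 other samples with at most 2 counts, under the floor of 3. The TRAJ32 clonotype, with 3044 counts or 0.577% (0.557% to 0.598%), was listed in no other sample. In the remaining 9 samples the largest TRAV14 clonotype held 0.194% to 0.788% of functional counts, and 6 of the 9 were listed under TRAV14D-1. All 13 largest clonotypes had different joints.

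The number of TRAV14 clonotypes was lower at 5 and 7 months than at 1.5 months by exact tests that did not pass adjustment, while the TRAV14 share of clonotypes stayed near 13%. At 1.5 months there were 1049 and 855 TRAV14 clonotypes, at 3 months 878, 775, 832 and 863, at 5 months 706 and 613, and at 7 months 684, 863, 697, 678 and 748. Both 5-month values and 4 of the 5 at 7 months lay below both at 1.5 months. The mean of 952 ± 137 at 1.5 months compared with 837 ± 45.6 at 3 months (p = 0.243), 659.5 ± 65.8 at 5 months (p = 0.00601, adjusted p = 0.0721) and 734 ± 77.2 at 7 months (p = 0.0160, adjusted p = 0.0960), by exact permutation over 540540 arrangements corrected for the 3 comparisons, with adjustment over 12 comparisons in all. The unadjusted p rose to 0.0995 at 5 months without 5 months replicate 2 and to 0.227 at 7 months without 1.5 months replicate 1 (exact permutation). With functional counts alone thinned to 476957 in each sample, the 5-month and 7-month differences were -281 (p = 0.00472) and -205 clonotypes (p = 0.0167, exact permutation tests). All functional clonotypes numbered 7247.5, 6399, 5108 and 5643 on average in the same order. The study's methods give a single number of sorted cells for all time points. The clonotype number counts distinct joints and not cells, and what lowered it was not tested. The paper describes moderately fewer unique clones at 5 and 7 months than at 1.5 months. Fewer distinct clones among the sorted cells, fewer cells that carry TRAV14 and less TCRα RNA per cell cannot be told apart in these bulk samples.

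**Figure D5:**
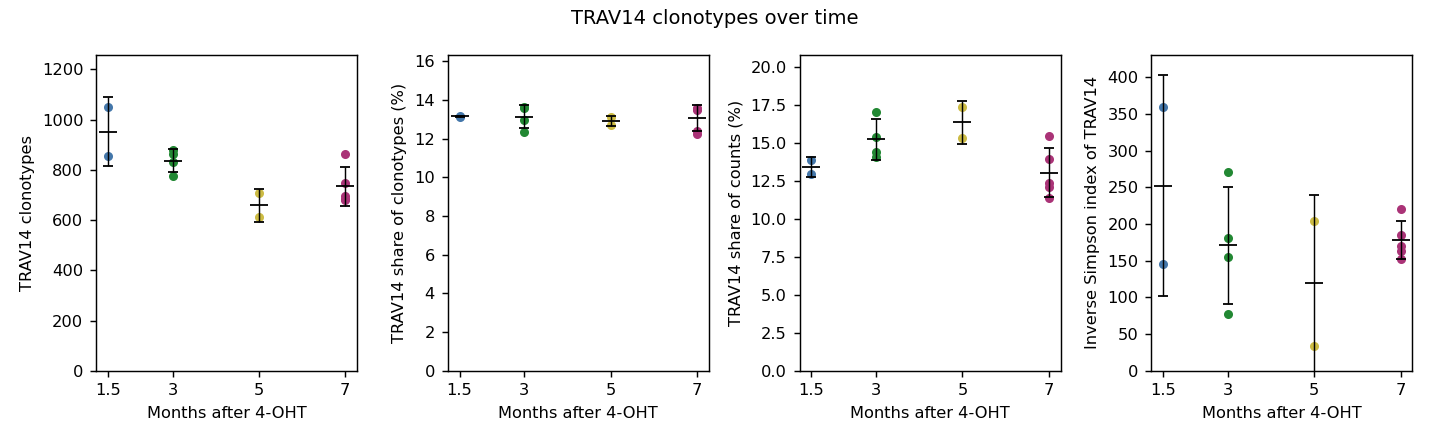
TRAV14 clonotypes, TRAV14 share of functional clonotypes (percent), TRAV14 share of functional counts (percent) and inverse Simpson index of TRAV14 at 1.5, 3, 5 and 7 months after 4-OHT; points are samples, bars mean ± SD. The clonotype number is lower at 5 and 7 months, while the share of clonotypes stays between 12.2% and 13.6%.

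The TRAV14 share of clonotypes was 13.1% and 13.2% at 1.5 months, 12.4%, 13.6%, 13.6% and 12.98% at 3 months, 13.1% and 12.7% at 5 months, and 13.5%, 13.6%, 12.4%, 13.5% and 12.2% at 7 months. By counts the share was 13.4% ± 0.663, 15.2% ± 1.33, 16.3% ± 1.41 and 13.03% ± 1.62 in the same order, and no time point passed the test against 1.5 months (p = 0.341, 0.149 and 0.978, exact permutation). The inverse Simpson index, which rises with an even spread of counts over clonotypes, was 359 and 146 at 1.5 months, 77.2, 180, 270 and 155 at 3 months, 34.0 and 204 at 5 months, and 220, 185, 153, 170 and 163 at 7 months. The groups overlapped and none passed the test against 1.5 months (p = 0.277 to 0.535, exact permutation), nor in the Gini coefficient, with means of 0.604, 0.616, 0.638 and 0.629 (p = 0.850 to 0.988). The lowest value, 34.0, belonged to the sample with the TRAJ39 clonotype of 14500 counts.

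None of 8 TRAV14 measures passed a test of correlation with months after 4-OHT (Pearson's r, 13 samples, 100000 permutations, adjusted p = 0.708 to 0.910). The most negative was CDR3 length with r = -0.467 (p = 0.106) and rho = -0.411 (p = 0.162), and without the 2 samples farthest from the median time r was -0.160 (p = 0.634, permutation tests). The share of counts had r = -0.288 (p = 0.333) and rho = -0.224 (p = 0.454), with r = -0.559 (p = 0.0775) without those samples. The share of CDR3s found in other samples had r = 0.0350 (p = 0.910) and rho = 0.0892 (p = 0.771), with r = -0.288 (p = 0.378) without them (permutation tests). J use within TRAV14 gave no call among 38 J genes at 7 against 1.5 months or at 7 against 3 months (0% called in both by edgeR, 0 and 1 (2.63%) at unadjusted p under 0.05, 0 by DESeq2). The smallest p belonged to TRAJ35 at 7 against 1.5 months, with a log2 difference of -0.999 (SE 0.49, adjusted p = 0.942), a J gene in which 60.6% of TRAV14 clonotypes were T-to-G partners. At 7 against 3 months it was TRAJ40 (0.44, SE 0.16, adjusted p = 0.700). On summed counts TRAJ42, named after its value was seen, was lower at 7 than at 3 months (log2 difference -1.74, adjusted p = 0.0444), and the largest TRAV14 clonotype at 3 months uses TRAJ42. The differences between TRAV14 and other clonotypes in length, joints, clone size, sharing and functional share did not pass the test against 1.5 months in any of 21 comparisons (smallest adjusted p = 0.429, exact permutation).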

How the data were processed

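TCRα clonotypes of 13 samples were analysed. Per the study's methods, the authors built α-chain libraries by 5′ RACE, assembled clonotypes with MiXCR and used VDJtools to drop a clonotype 1 or 2 mismatches away from a larger one when its relative size was under 0.05 raised to the number of mismatches. The deposited tables give each clonotype a count, used here, and its share of the sample as a fraction, not used. GRCm38 is named in the submitters' processing notes. Positions and germline sequences came from GENCODE vM21, which held 103 of 104 V names and 44 of 44 J names. Frameshift and stop-codon clonotypes, which the study removed, were used only as the non-functional set.

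Python 3.11.15 (numpy 2.4.6, pandas 2.3.3, scipy 1.17.1) computed values per sample, and R 4.3.3 ran edgeR 4.0.16 (filterByExpr, TMM, quasi-likelihood, Benjamini-Hochberg) on clonotype numbers per V family, V gene or J gene, with DESeq2 1.42.0 as an alternative. TRAV14 and other clonotypes were compared within samples by exact sign flips (8192 arrangements). For time points, where the study used analysis of variance with 1.5 months as reference, the same kind of statistic was tested by exact permutation because groups were small. In simulated data the J test found 99% of J genes changed 1.5-fold and the V gene test at 7 against 1.5 months 57%. These simulations changed only the more used J and V genes and assumed a fixed spread, so they do not cover less used genes. Named J genes were up to 6 per direction with the largest change among those called, the 5 most used, and over time the smallest p. Named clonotypes were the largest of each sample, those in all samples and the 3 with most nucleotide forms. Members, lists and tests were chosen with earlier results of these data known, and J position and class, clonotypes over 0.1%, frameshift comparisons per member and T-to-G partners after the data were seen. Inserted bases were taken from the deposited V end and J start and, after the data were seen, also from the longest exact matches to GENCODE germline ends. The range of depth over samples stands in the report.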

Additional observations from a re-analysis of the deposited data

Results flagged for a closer look

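Among 46 groups of 4 or 5 samples tested for a sample far from the rest, 1 stood out, where chance gives about 1 in 20 groups. In CDR3 length, the difference between TRAV14 and other clonotypes at 3 months was -0.192 residues in replicate 1, while the other 3 replicates lay between -0.326 and -0.311. TRAV14 CDR3s were shorter in all 4 of these samples.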

How the results depend on the processing

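Leaving out 1 sample at a time gave -0.00157 to 0.0250 bases for inserted bases of TRAV14 minus other clonotypes, 0.11 to 0.16 for log2 clone size, -390 to -196 and -315 to -121 for the clonotype number at 5 and 7 against 1.5 months, and -0.955 to 0.110 points for the share of counts at 7 months. With all samples the drop in clonotypes, -292.5 at 5 months and -218 at 7 months, did not pass adjustment. The drop shrank to -246 at 5 months without 5 months replicate 2, and to -121 at 7 months without 1.5 months replicate 1. Each of these removals leaves 1 sample in a group. The ranges were -188 to 25.0, -240 to -26.7 and -181 to 32.4 for the inverse Simpson index at 3, 5 and 7 months, the 5-month extremes being without 1.5 months replicate 2 and replicate 1, -0.00545 to 0.0298 and -0.0472 to 0.115 for the Gini coefficient at 3 and 5 months, and -0.0551 to 0.0109 and -0.0730 to 0.0155 (log2) for the family at 7 against 1.5 and 3 months. Correlations with time ran from -0.231 to 0.0786 for the share of clonotypes, -0.596 to -0.0191 for inserted bases (p = 0.0432 without 1.5 months replicate 2), -0.332 to 0.106 for the inverse Simpson index and -0.0532 to 0.286 for sharing. Single members at 7 against 1.5 months ran from -0.0228 to 0.12 (TRAV14-1), -0.0173 to 0.0750 (TRAV14-3) and -0.15 to 0.38 (TRAV14N-3), and at 7 against 3 months from -0.0640 to 0.16 (TRAV14-1), -0.0332 to 0.0981 (TRAV14-2), -0.0171 to 0.15 (TRAV14-3) and -0.25 to 0.19 (TRAV14D-2).

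Weighted by counts, inserted bases turned to -0.0772, joints without them to 1.50 points and mean J position fell to 0.267 kb. On summed counts TRAV14-1 turned to -0.11 and -0.17, TRAV14-3 to -0.19 and -0.75 and TRAV14N-3 to -0.0186 (log2), and J calls went to 1 within TRAV14 at 7 against 3 months and to 4 against other clonotypes. A minimum of 2 counts lowered the log2 clone size to 0.0756, and the dual-use gene lowered it to 0.10 and turned the share of counts at 7 months to 0.278 points. Against stop-codon clonotypes alone the functional excess was 2.11 points, and above 0.2% of counts the excess of TRAV14 was 3.91 points. Removing T-to-G partners turned TRAJ15 to -0.0210, TRAV14-3 at 7 against 1.5 months to -0.0276, TRAV14-2 at 7 against 3 months to -0.00488 and the trend of sharing to r = -0.00473. It also moved the family at 7 against 1.5 months to -0.0547 (log2) and inserted bases to 0.0309, and neither passed. With the dual-use gene in the family TRAJ53 fell to 0.28 and missed the threshold, and TRAJ15 (0.19) and TRAJ13 (0.18) passed it. By exact germline matches, an alternative chosen after seeing the data, the difference in inserted bases turned to -0.374 and passed (exact p = 0.00146), that in joints without them shrank to -0.356 points and did not pass (exact p = 0.438), and functional minus frameshift joints came to -4.87 bases. The cause was not tested in any of these. CDR3 length, sharing, nucleotide forms and the functional excess kept direction and call under every other alternative run.

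Replicate numbers repeat across time points without a stated relation, and same-numbered samples did not deviate together (correlations -0.371 to 0.0230 over 14 pairs for sample measures). With a replicate block the clonotype number differed by -292.5 (p = 0.0616) and -205 (p = 0.178, exact permutation within numbers) at 5 and 7 months, the share of counts at 7 months by 0.833 points, the family by 0.00817 and 0.0143 (log2) and TRAV14D-2 at 7 against 3 months by 2.71e-05. The trends came to 0.0904 for the share of clonotypes and -0.0167 for sharing.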
